A study of Mus musculus with 17 samples.

Results

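The piRNA pathway genes examined here are 10 genes, Piwil1, Piwil2, Piwil4, Ddx4, Tdrd1, Tdrd5, Tdrd9, Mov10l1, Mael and Asz1, of 23891 gene symbols in the RNA-seq files. They were chosen by name. Each is given by the RefSeq transcript with the highest mean FPKM over the 17 samples, and together they have 15 of the 32661 RefSeq transcripts. FPKM is a fragment count scaled by transcript length and library size, so levels can be compared between genes.

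The study followed the spontaneous conversion of mouse spermatogonial stem and progenitor cells (SSCs) in culture into multipotent adult spermatogonial-derived stem cells (MASCs). SSCs came from testes of mice over 3 months old and were grown on mouse embryonic fibroblast (MEF) feeders with GDNF, bFGF and EGF. Of the 4 SSC lines, lines 1 and 2 were of the Oct4-GFP strain, line 3 was C57Bl/6J and line 4 was 129mix, a mix of C57Bl6 and 129S. Among the 6 MASC lines, lines 1 and 2 were Oct4-GFP, lines 3 and 4 were 129mix, and lines 5 and 6 were Gt(ROSA26)Sor-lacZ. MASC colonies were picked by hand from long-term SSC cultures and kept on MEF feeders with LIF, as were the embryonic stem cell (ESC) lines (line 1 Oct4-GFP, line 2 129mix) and the 2 induced pluripotent stem (iPS) cell lines. Both iPS lines were 129mix and came from E13.5 MEFs with a tetO-4F2A reprogramming cassette and an H3.3B-HA allele, induced with 2 µg/ml doxycycline. The 2 haematopoietic stem and progenitor cell (HSC) cultures were lineage-depleted C57Bl/6J bone marrow expanded on endothelial E4ORF1-HUVEC feeders. One MEF sample (129mix, H3.3B-HA, E13.5) had no replicate. The MASC and ESC lines were subcloned. The labels do not say which SSC line gave rise to which MASC line, nor whether lines of one strain came from separate mice. Same-strain lines may therefore share an origin, and p-values measure only the spread between these lines. MASC lines 5 and 6 have no SSC line of their strain here, and SSC line 3 has no MASC line of its strain. Medium differed between the SSC lines and the MASC, ESC and iPS lines, so cell type and medium cannot be told apart in those comparisons.

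piRNAs are small RNAs of the germ line that are bound by PIWI proteins and guide them to the transcripts and genes of transposons. Precursors are processed at germ granules and at the mitochondrial surface with the help of helicases, Tudor domain proteins and membrane-bound factors. In the male germ line, the pathway silences transposons, and loss of many of its genes stops spermatogenesis.

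Markers were checked against the labels. Zbtb16, a transcription factor of undifferentiated spermatogonia, was between 32.2 and 80.3 FPKM in the SSC lines and at most 0.732 FPKM in the MASC lines. Not all 11 genes of the spermatogonial list behaved so, since Etv5 averaged 49.1 FPKM in SSCs and 111.6 FPKM in MASCs, Sall4 44.97 and 58.7 FPKM, and Lin28a 103.0 and 103.6 FPKM. The sum of the list was 718 to 1263 FPKM in SSC lines and 360 to 410.0 FPKM in MASC lines. Pou5f1 was between 693 and 1007 FPKM in the MASC lines and at most 5.42 FPKM in SSC lines 2 to 4, but 94.5 FPKM in SSC line 1. Nanog was at most 0.0435 FPKM in any SSC line. The 8 fibroblast markers summed to 9.48 to 693 FPKM in the SSC lines, 15.1 to 815 FPKM in the MASC lines and 5955 FPKM in the MEF sample, and SSC lines 1 and 3, MASC line 1, ESC line 1 and HSC culture 2 had more than 100 FPKM of Col1a2. The MEF sample also held 46.1 FPKM of the blood factor Spi1. The 5 spermatid markers summed to at most 0.842 FPKM in every sample. At 1 FPKM a transcript had 1.26 to 3.23 reads over each base, depending on the sample, so a value of 0.1 FPKM rests on few reads.

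The first question was how far the pathway differs between the SSC lines and the MASC lines. These are groups of lines, not parent lines and their descendants. They also differed in medium, and the part of the medium in the result was not tested. All 10 genes had a lower mean in the MASC lines. Of these, 8 passed the threshold, a log2 difference of at least 2 and an adjusted p under 0.05 over all transcripts, where 2.13% of transcripts passed in this direction. The median difference of the 10 genes was -3.54 on the log2(FPKM + 1) scale, against -0.0048 over all transcripts and -0.12 over the 20119 transcripts with at least 1 FPKM in at least 2 samples. For 9 of the 10 genes every MASC line was below every SSC line, which was so for 15.4% of all transcripts. The count was also 8 without SSC line 1, the line with Pou5f1. In bulk samples, fewer cells of a type and less RNA per cell cannot be told apart. Markers of other testis cells also differed between the groups, though not all in one direction. The 7 meiotic markers summed to 112 to 238 FPKM in SSC lines and 32.0 to 63.3 FPKM in MASC lines, and the 8 Sertoli and Leydig markers to 23.6 to 33.3 FPKM and 7.48 to 24.3 FPKM. The Sertoli and Leydig sums of SSC and MASC lines overlapped. Wt1 was at 8.17 to 20.9 FPKM in SSCs and 0.797 to 4.41 FPKM in MASCs, while Amh was at most 0.817 FPKM and Cyp17a1 at most 0.0317 FPKM in SSCs. Some markers had the higher mean in MASCs. Cyp11a1 averaged 0.0888 FPKM in SSCs and 1.34 FPKM in MASCs, Insl3 1.15 and 2.44 FPKM, and Gata4 3.05 and 4.16 FPKM. Amh averaged 0.291 and 0.374 FPKM, and the meiotic marker Hormad1 10.8 and 12.1 FPKM. The part of these cell types in the result was not tested.

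**Figure D1:**
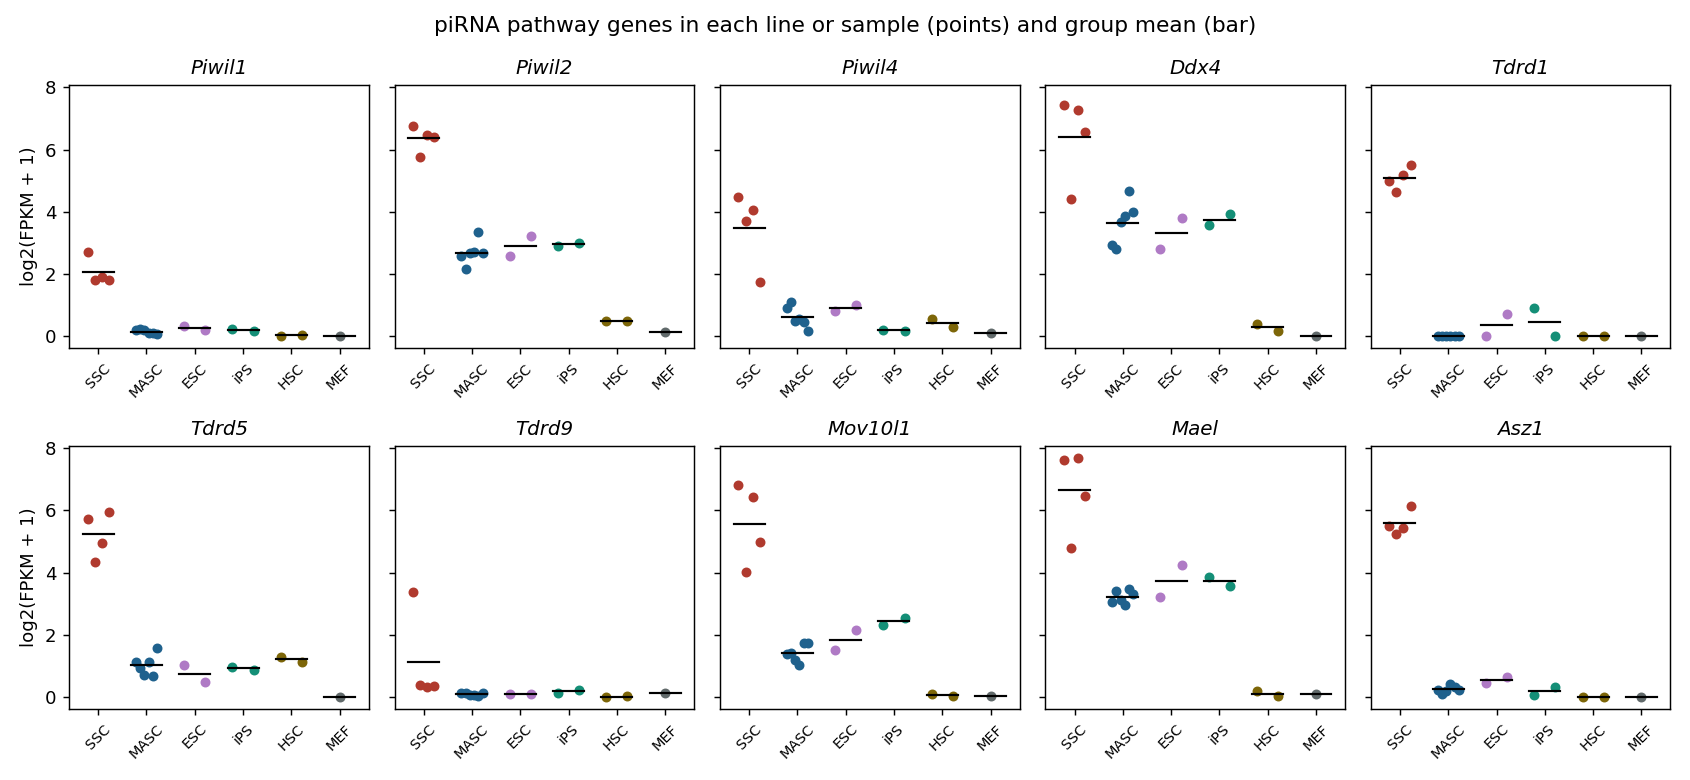
Level of each of the 10 genes, as log2(FPKM + 1) on the vertical axis, in every line or sample (points) with the group mean (bar). The SSC points lie above the points of all other groups for every gene except Ddx4, where MASC line 5 (24.2 FPKM) is above SSC line 2 (20.1 FPKM).

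The genes of the PIWI proteins themselves differed in RNA level. Piwil2 (MILI, NM_021308, chr14:70772287-70828901 on mm9), which takes part in piRNA production in prospermatogonia and spermatogonia, was at 108, 53.6, 87.8 and 84.1 FPKM in SSC lines 1 to 4. In the 6 MASC lines it ranged from 3.50 to 9.16 FPKM with a median of 5.37. The groups were far apart, with a difference of -3.67 ± 0.25 (SE; limma adjusted p 6.1e-06). Piwil4 (MIWI2, NM_177905, chr9:14506802-14545177), the nuclear PIWI protein of foetal germ cells, was at 21.3, 11.9, 15.6 and 2.36 FPKM in the SSC lines. The MASC lines held between 0.137 and 1.13 FPKM, with a median of 0.456. The difference was -2.87 ± 0.46 (limma adjusted p 0.00113), and SSC line 4 was 2.09 times the highest MASC line. Piwil1 (MIWI, NM_021311, chr5:129242121-129261349), known for its role in meiotic and post-meiotic germ cells, was low in SSCs too, at 5.57, 2.48, 2.74 and 2.51 FPKM. MASC lines ranged from 0.0508 to 0.170 FPKM with a median of 0.113. Its difference of -1.90 ± 0.16 had an adjusted p of 2.47e-05 (limma) but was under the size threshold, which the pseudocount of 1 makes hard to reach for a low gene. With a pseudocount of 0.1 the difference was -3.95 (limma adjusted p 6.02e-06).

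Among the helicases, Ddx4 (VASA, NM_001145885, chr13:113388541-113442518), an RNA helicase of the germ granule and a widely used germ cell marker, was at 170, 20.1, 153 and 93.2 FPKM in the SSC lines. Between 5.97 and 24.2 FPKM remained in the MASC lines, with a median of 12.7. This was the only gene of the 10 whose SSC and MASC lines overlapped, and the difference was -2.76 ± 0.62 (limma adjusted p 0.00729). Without the lines over 100 FPKM of Col1a2 (SSC lines 1 and 3 among them), the Ddx4 difference was -1.68 with an adjusted p of 0.163 (limma), and the call was lost. Mov10l1 (NM_031260, chr15:88813424-88885582), a helicase that binds piRNA precursors, was at 112, 15.1, 85.1 and 30.3 FPKM in SSCs. MASC lines held 1.07 to 2.37 FPKM with a median of 1.64, a difference of -4.14 ± 0.50 (limma adjusted p 0.000198). Tdrd9 (NM_029056, chr12:113209770-113307065), a helicase with a Tudor domain that acts with MIWI2, was at 9.40 FPKM in SSC line 1 but at 0.311, 0.265 and 0.293 FPKM in SSC lines 2 to 4. All 6 MASC lines were lower still, from 0.0195 to 0.108 FPKM with a median of 0.0671. The difference of -1.02 ± 0.55 did not pass (limma adjusted p 0.199). It rested on SSC line 1, without which it was -0.27 (limma adjusted p 0.000217).

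The Tudor domain scaffolds showed large differences. Tdrd1 (NM_001002238, chr19:56900699-56944502), which gathers MILI and other proteins in the germ granule, was at 31.1, 23.7, 35.3 and 44.3 FPKM in the SSC lines. No MASC line exceeded 0.00211 FPKM for this transcript, and the difference was -5.08 ± 0.17 (limma adjusted p 8.31e-08). Tdrd5 (NM_001134741, chr1:158185426-158233479), needed for the assembly of germ granules, was at 51.9, 19.2, 30.1 and 60.2 FPKM in SSCs. The MASC lines ranged from 0.619 to 1.96 FPKM with a median of 1.03. Its difference was -4.21 ± 0.32 (limma adjusted p 1.08e-05), and the lowest SSC line stood 9.78 times above the highest MASC line.

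The remaining members are Mael and Asz1. Mael (NM_175296, chr1:168131516-168168875), the mouse Maelstrom gene, which acts in transposon silencing, was at 193, 26.9, 205 and 87.1 FPKM in the SSC lines. It was at 6.72 to 10.1 FPKM in the MASC lines, with a median of 8.36, and the highest of these lines was 1.51 times the lowest, the narrowest range of the 10 genes. The difference was -3.42 ± 0.52 (limma adjusted p 0.000792). Asz1 (GASZ, NM_023729, chr6:18000964-18059061), a protein of the outer mitochondrial membrane, was at 43.9, 36.6, 42.4 and 70.0 FPKM in SSCs. MASC lines held only 0.0637 to 0.344 FPKM with a median of 0.174. Asz1 had the largest difference of the 10 genes, -5.33 ± 0.16 (limma adjusted p 3.63e-08) with the pseudocount of 1, and the lowest SSC line was 106 times the highest MASC line. With a pseudocount of 0.1 the order of the transcripts read turned, with -8.34 for NM_001002238 of Tdrd1 and -7.41 for Asz1. In MASC lines nearly all Tdrd1 signal was assigned to another transcript, NM_001002240, at 0.314 to 0.876 FPKM. Tdrd1 summed over its transcripts was not fitted with that pseudocount, so the order of the 2 genes was not tested there.

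An exact two-sided permutation test between 4 SSC and 6 MASC lines gave p = 0.00476 for 9 genes and p = 0.00952 for Ddx4. The test compared mean log2(FPKM + 1), and the lower value is the smallest that the 210 splits allow. These 9 genes are those with every MASC line below every SSC line. For them the test restates that separation, which 15.4% of all transcripts shared, and is not separate support. The test also takes the lines as exchangeable, which lines of shared origin would not be. The share of the SSC mean left in MASC lines was 11.7% for Ddx4, 6.77% for Piwil2 and 6.56% for Mael, and 0.393% for Asz1.

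**Figure D2:**
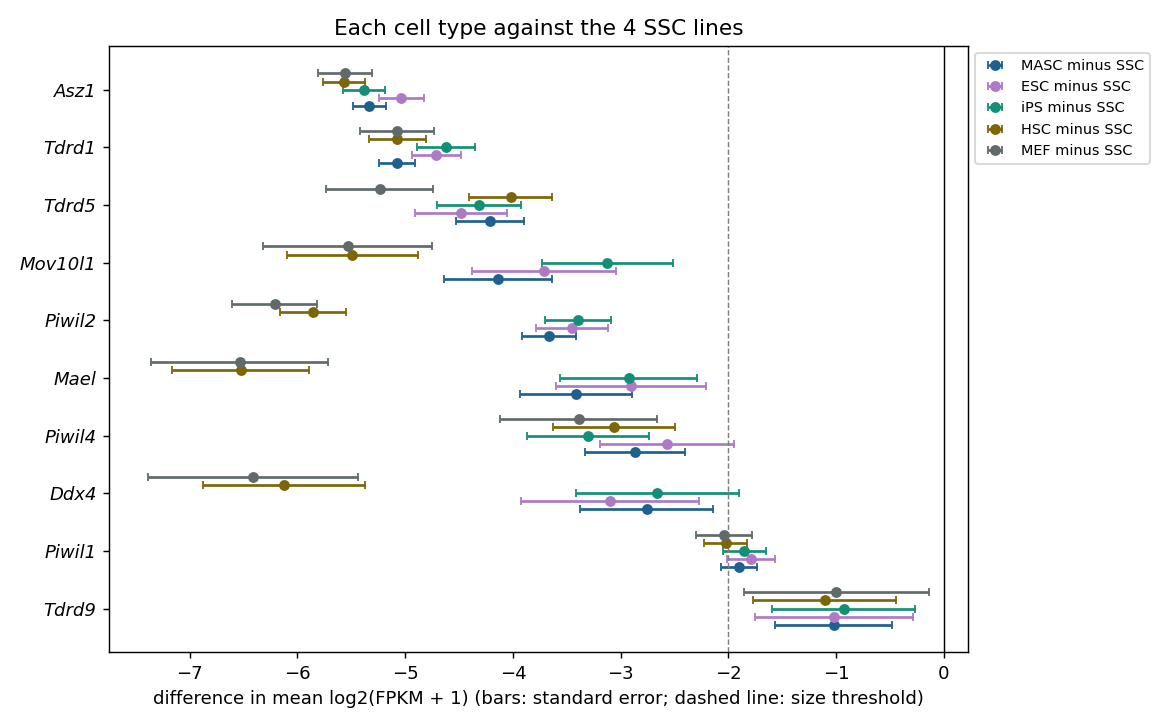
Difference in mean log2(FPKM + 1) from the 4 SSC lines (horizontal axis, bars show the standard error) for each gene and each other cell type. Asz1 and Tdrd1 have differences near or beyond -5 in MASC lines, whereas Ddx4, Mael, Piwil2 and Mov10l1 are less far below SSCs in MASC, ESC and iPS lines than in HSC cultures and the MEF sample.

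Promoter sequences are shown because the genes moved together, for 6 genes whose promoter holds an E-box and for Asz1, as an example of a gene with a large difference and no E-box. Windows of 300 bases, from 250 before to 50 after the annotated start of each transcript, were read from the mm9 genome. The palindromic E-box CACGTG was present in 6 of the 10 windows (Piwil1, Ddx4, Tdrd1, Tdrd9, Mov10l1 and Mael), and in 8.002% of 23233 windows of distinct transcript starts. Those windows were not matched for CpG or GC content, which was higher at the median in the windows of the 10 genes. The motif lay at -11 in Tdrd1, at -29 in Ddx4, at -223 in Mael and at -246 in Mov10l1, counted from the transcript start to its first base, with -1 the last base before the start. Piwil1 had matches at -179 and -154, and Tdrd9 at -165 and -95. These are matches of letters, and binding was not measured here. Tdrd9, whose difference did not pass, holds 2 of them, and Asz1 holds none. The 250 bases before the start are given 5′ to 3′, with E-boxes, E2F and NRF1 motifs in capitals.
Piwil1, chr5:129241871-129242120, plus strand: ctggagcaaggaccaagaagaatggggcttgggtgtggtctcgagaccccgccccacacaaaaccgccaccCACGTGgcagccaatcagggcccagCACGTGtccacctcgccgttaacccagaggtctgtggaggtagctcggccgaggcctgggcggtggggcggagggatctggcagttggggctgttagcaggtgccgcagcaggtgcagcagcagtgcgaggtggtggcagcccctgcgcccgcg
Ddx4, chr13:113442519-113442768, minus strand: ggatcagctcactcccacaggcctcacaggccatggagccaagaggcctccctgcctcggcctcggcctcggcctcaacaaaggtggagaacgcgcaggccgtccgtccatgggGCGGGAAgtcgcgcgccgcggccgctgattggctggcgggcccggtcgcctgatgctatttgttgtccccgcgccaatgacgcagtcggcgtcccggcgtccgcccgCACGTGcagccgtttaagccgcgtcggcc
Tdrd1, chr19:56900449-56900698, plus strand: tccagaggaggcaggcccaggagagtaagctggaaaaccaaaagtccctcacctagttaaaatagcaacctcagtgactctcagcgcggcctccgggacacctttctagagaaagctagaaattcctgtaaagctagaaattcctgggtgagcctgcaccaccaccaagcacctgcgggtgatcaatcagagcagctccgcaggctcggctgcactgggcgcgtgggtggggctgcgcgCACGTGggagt
Tdrd9, chr12:113209520-113209769, plus strand: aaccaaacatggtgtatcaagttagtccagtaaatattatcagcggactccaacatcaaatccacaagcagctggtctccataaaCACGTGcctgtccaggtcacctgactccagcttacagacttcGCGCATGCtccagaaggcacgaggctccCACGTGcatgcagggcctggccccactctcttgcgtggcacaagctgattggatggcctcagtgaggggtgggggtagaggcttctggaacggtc
Mov10l1, chr15:88813174-88813423, plus strand: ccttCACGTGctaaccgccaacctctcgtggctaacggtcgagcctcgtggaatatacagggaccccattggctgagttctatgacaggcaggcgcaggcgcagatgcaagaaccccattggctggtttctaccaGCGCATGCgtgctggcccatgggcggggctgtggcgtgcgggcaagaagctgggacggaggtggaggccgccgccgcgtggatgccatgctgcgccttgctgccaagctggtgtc
Mael, chr1:168168876-168169125, minus strand: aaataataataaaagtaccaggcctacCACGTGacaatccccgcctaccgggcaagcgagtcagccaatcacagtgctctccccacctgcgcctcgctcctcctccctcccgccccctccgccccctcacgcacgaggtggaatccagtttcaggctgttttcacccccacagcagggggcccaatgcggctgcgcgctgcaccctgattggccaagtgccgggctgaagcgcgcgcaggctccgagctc
Asz1, chr6:18059062-18059311, minus strand: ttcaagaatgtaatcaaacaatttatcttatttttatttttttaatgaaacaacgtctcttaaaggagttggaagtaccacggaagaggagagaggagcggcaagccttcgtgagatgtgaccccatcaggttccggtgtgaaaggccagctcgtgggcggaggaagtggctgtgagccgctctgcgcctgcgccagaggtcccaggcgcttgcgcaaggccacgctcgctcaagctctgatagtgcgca

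Other motifs searched on both strands were GCGGGAA (E2F), found in 2 of the 10 windows (Ddx4 and Tdrd5) and 6.11% of all, and GCATGCGC (NRF1), found in 2 (Tdrd9 and Mov10l1) and 3.47%. TGACGTCA, the cAMP response element, was in 0 of the 10 and 2.38% of all, and CCAAT in 5 of the 10 and 37.5%. The windows of the 10 genes held 10 to 48 CpG dinucleotides with a median of 19, against a median of 13 over all windows. Their GC content ranged from 51.0% to 76.0% with a median of 63.8%, against 56.7% over all.

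Tdrd1 and Tdrd5 had further transcripts at 1 FPKM or more. For Tdrd1, NM_001002240, which starts at 56900765, was at 35.6, 0.786, 20.0 and 8.96 FPKM in SSC lines 1 to 4. It therefore made up 52.6% of the Tdrd1 FPKM in SSC line 1 but 3.17% in SSC line 2. In the MASC lines nearly all Tdrd1 signal was assigned to this transcript, at 0.314 to 0.876 FPKM. NM_031387 reached 1.96 FPKM in SSC line 4. Summed over its transcripts, Tdrd1 was at 67.7, 24.8, 55.8 and 55.3 FPKM in SSCs and 0.315 to 0.877 FPKM in MASCs, a difference of -4.93 (limma adjusted p 9.89e-07). The starts of NM_001002238 and NM_001002240 lie close together, and how Cufflinks divided shared reads between them was not tested. For Tdrd5, NM_001277730 was at 22.9, 6.43, 12.7 and 9.44 FPKM in SSCs and at 0.351 to 1.92 FPKM in MASCs. It was the more abundant Tdrd5 transcript in MASC lines 2 to 5 and the less abundant in all SSC lines. In HSC cultures 1 and 2 NM_001277730 was at 2.23 and 2.28 FPKM. Summed over both transcripts, Tdrd5 was at 3.70 and 3.47 FPKM there, above the highest pluripotent line (MASC line 4, 2.83 FPKM). NM_010029 of Ddx4 reached 4.01 FPKM in SSC line 3 and was at most 3.80% of Ddx4 in any SSC line.

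**Figure D3:**
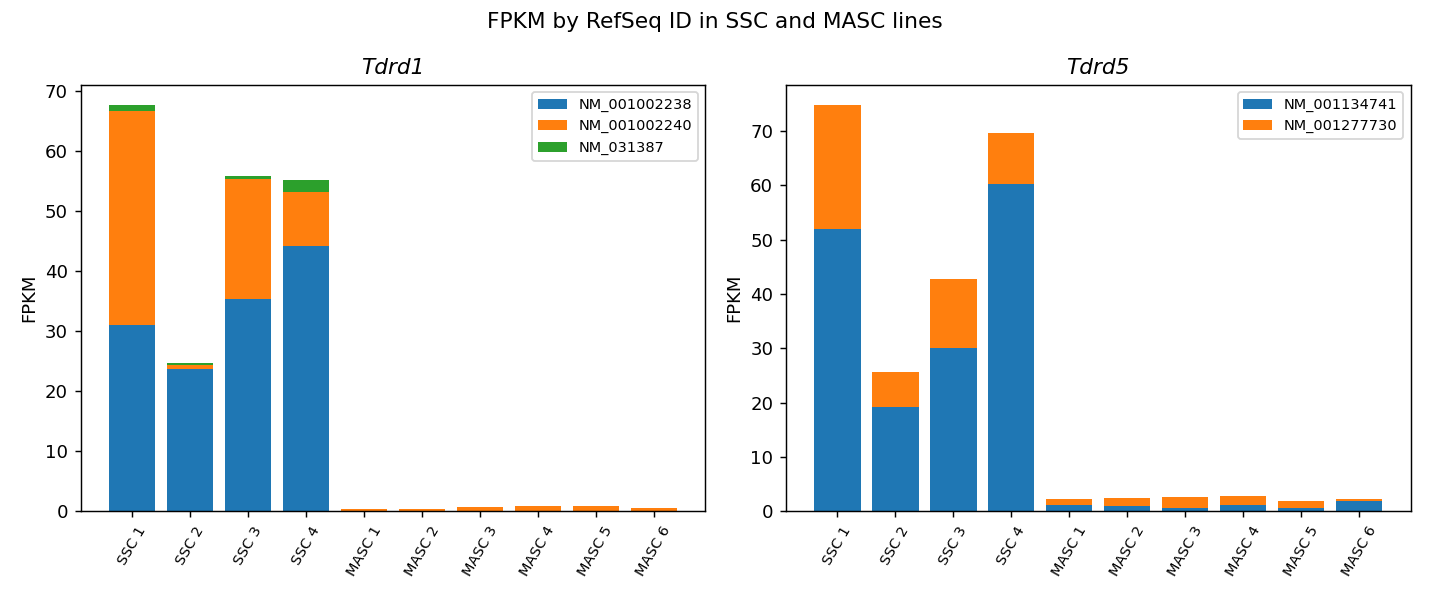
FPKM of each RefSeq transcript of Tdrd1 and Tdrd5, stacked, in the 4 SSC and 6 MASC lines; transcripts under 0.1 FPKM in all 10 lines are left out. The Tdrd1 stack of SSC line 1 is split between NM_001002238 and NM_001002240, and that of SSC line 2 (24.8 FPKM in all) is almost wholly NM_001002238.

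The second question was whether the low levels in MASCs differ from those of other pluripotent cells. Against the same SSC lines, 8 of the 10 genes were called lower in ESC lines (2.35% of all transcripts) and 8 in iPS lines (2.23%). These comparisons and that of MASCs share the SSC lines. Piwil1 and Tdrd9 were the members not called in each. Asz1 differed by -5.03 ± 0.21 in ESCs (limma adjusted p 6.87e-07) and -5.38 ± 0.19 in iPS cells (limma adjusted p 8.62e-09). Ddx4 was at 6.07 and 12.9 FPKM in the ESC lines and 10.8 and 14.3 FPKM in the iPS lines, and its calls had limma adjusted p of 0.0246 and 0.0229. Without ESC line 1 only 5 of the 10 genes were called lower in ESCs, and Ddx4, Mael and Piwil4 were not among them. ESC line 1 is also among the lines over 100 FPKM of Col1a2. Leaving those lines out keeps 1 ESC line and 2 SSC lines, so it repeats this omission and is not a separate check.

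Between MASC and ESC lines none of the 10 genes passed the limma threshold, and none had an unadjusted p under 0.05, where 0.0153% of all transcripts were called in either direction. Mael was at 8.26 and 18.0 FPKM in ESCs, and its MASC minus ESC difference was -0.51 with a 95% interval from -1.98 to 0.96. For Ddx4 the interval ran from -1.40 to 2.09 and for Piwil2 from -0.93 to 0.50. With only 2 ESC lines, the intervals of Mael, Ddx4, Piwil4, Tdrd5, Tdrd9 and Mov10l1 include log2 differences of a size beyond 1. Summed over its transcripts, Tdrd1 was at 0.266 and 0.666 FPKM in the ESC lines and 0.883 and 0.929 FPKM in the iPS lines. Nearly all of it was assigned to NM_001002238 in ESC line 2 and iPS line 1, and to NM_001002240 in ESC line 1 and iPS line 2. Likewise, none of the 10 genes differed between iPS and ESC lines by limma (0 with an unadjusted p under 0.05), where 0.0429% of transcripts were called. Piwil4 was low in iPS cells, at 0.165 and 0.119 FPKM against 0.780 and 1.02 FPKM in ESCs, a difference of -0.73 with an interval from -2.16 to 0.70.

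Summed over the transcripts read of the 10 genes, 1 for each, the somatic samples held the least. The sum was 2.10 to 2.88 FPKM in HSCs and 0.385 FPKM in the MEF sample, against at least 23.0 FPKM in every pluripotent line. This did not hold gene by gene, and Tdrd5 and Piwil4 were higher in both HSC cultures than in both iPS lines. In HSC cultures 9 of the 10 genes were called lower than in SSCs (5.08% of all transcripts), as were 9 in the MEF sample (4.81%), with Tdrd9 the exception in each. Mael was at 0.136 and 0.0287 FPKM in HSCs and 0.0746 FPKM in the MEF sample. Its differences from SSCs were -6.53 ± 0.64 for HSCs (limma adjusted p 8.69e-06) and -6.53 ± 0.82 for the MEF sample (limma adjusted p 0.000129). None of the transcripts read exceeded 0.106 FPKM in the MEF sample, where NM_010029 of Ddx4 was at 0.148 FPKM and NM_001002240 of Tdrd1 at 0.119 FPKM. The Piwil1 differences, -2.03 for HSCs and -2.04 for the MEF sample, were just past the size threshold and fell short of it in 4 alternatives each, among them the fit without SSC line 1. In the fit, the lone MEF sample was assumed to vary like the other groups.

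Part of the pathway was higher in pluripotent lines than in the HSC cultures. Comparing the mean of MASC, ESC and iPS lines with HSCs, 3 of the 10 genes were called higher (3.85% of all transcripts). Mael was higher by 3.44 ± 0.58 (limma adjusted p 0.000637), Ddx4 by 3.28 ± 0.69 (adjusted p 0.00288) and Piwil2 by 2.35 ± 0.28 (adjusted p 4.47e-05). Piwil2 was at 5.03 and 8.31 FPKM in ESCs and 6.56 and 7.05 FPKM in iPS cells, against 0.415 and 0.413 FPKM in HSCs. Mov10l1 was at 1.89 and 3.49 FPKM in ESCs, 4.03 and 4.79 FPKM in iPS cells, and 0.0635 and 0.0300 FPKM in HSCs. Its difference of 1.83 ± 0.56 had a limma adjusted p of 0.0241 but was under the size threshold. None of the other 6 genes passed. For Tdrd5 the HSC values of 1.47 and 1.19 FPKM lay above those of both iPS lines (0.950 and 0.849 FPKM), with a difference of -0.31 ± 0.36 (limma adjusted p 0.596). Asz1, with 0.369 and 0.553 FPKM in ESCs and at most 0.0125 FPKM in HSCs, differed by 0.32 ± 0.18 (limma adjusted p 0.206).

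The iPS lines gave the same comparison in cells that came from fibroblasts. Piwil2, Ddx4 and Mael were called higher in iPS cells than in the MEF sample, 3 of the 10 genes against 4.17% of all transcripts. Their differences were 2.82 ± 0.43, 3.75 ± 1.07 and 3.61 ± 0.90, with limma adjusted p of 0.000733, 0.0259 and 0.0133. Without iPS line 1 only Piwil2 was still called. Mov10l1 was higher by 2.41 ± 0.86, with an adjusted p of 0.0688 (limma). Asz1 was at 0.0603 and 0.242 FPKM in the iPS lines and 0.0130 FPKM in the MEF sample.

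Ordered by level, SSCs came first for all 10 genes. The MASC, ESC and iPS lines followed for Ddx4, Mael, Piwil2 and Mov10l1, and HSCs and the MEF sample came last. Within the pluripotent lines, both iPS lines held more Mov10l1 than the highest MASC line (2.37 FPKM), a difference that was not tested. For the transcripts read of Piwil1, Piwil4, Tdrd1, Tdrd5, Tdrd9 and Asz1, no sample other than SSCs exceeded 1.96 FPKM, and their order was not read.

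SSC lines differed widely from one another for several genes. SSC line 2 had the lowest value for 8 of the 10 genes, Piwil4 being lowest in line 4 and Tdrd9 in line 3. For the transcripts read, SSC line 1 was highest for 6 genes, line 4 for 3 and line 3 for Mael. Tdrd1 and Tdrd5, highest in line 4 by the transcripts read, were highest in line 1 by the sum of their transcripts. The sums were 67.7 and 74.7 FPKM in line 1, against 55.3 and 69.6 FPKM in line 4. Between the lowest and highest SSC line, Tdrd9 differed 35.5-fold, Piwil4 9.02-fold, Ddx4 8.49-fold, Mael 7.63-fold and Mov10l1 7.41-fold. By contrast, Asz1 differed 1.91-fold, Piwil2 2.02-fold and the NM_001002238 transcript of Tdrd1 1.87-fold. Summed over its transcripts, Tdrd1 ran from 24.8 FPKM in line 2 to 67.7 FPKM in line 1. Lines 1 and 3, which had the higher values of Ddx4, Mael and Mov10l1, were also the SSC lines with 102 and 267 FPKM of Col1a2, against 1.37 and 18.8 FPKM in lines 2 and 4. The part of feeder content or culture state in these differences was not tested.

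**Figure D4:**
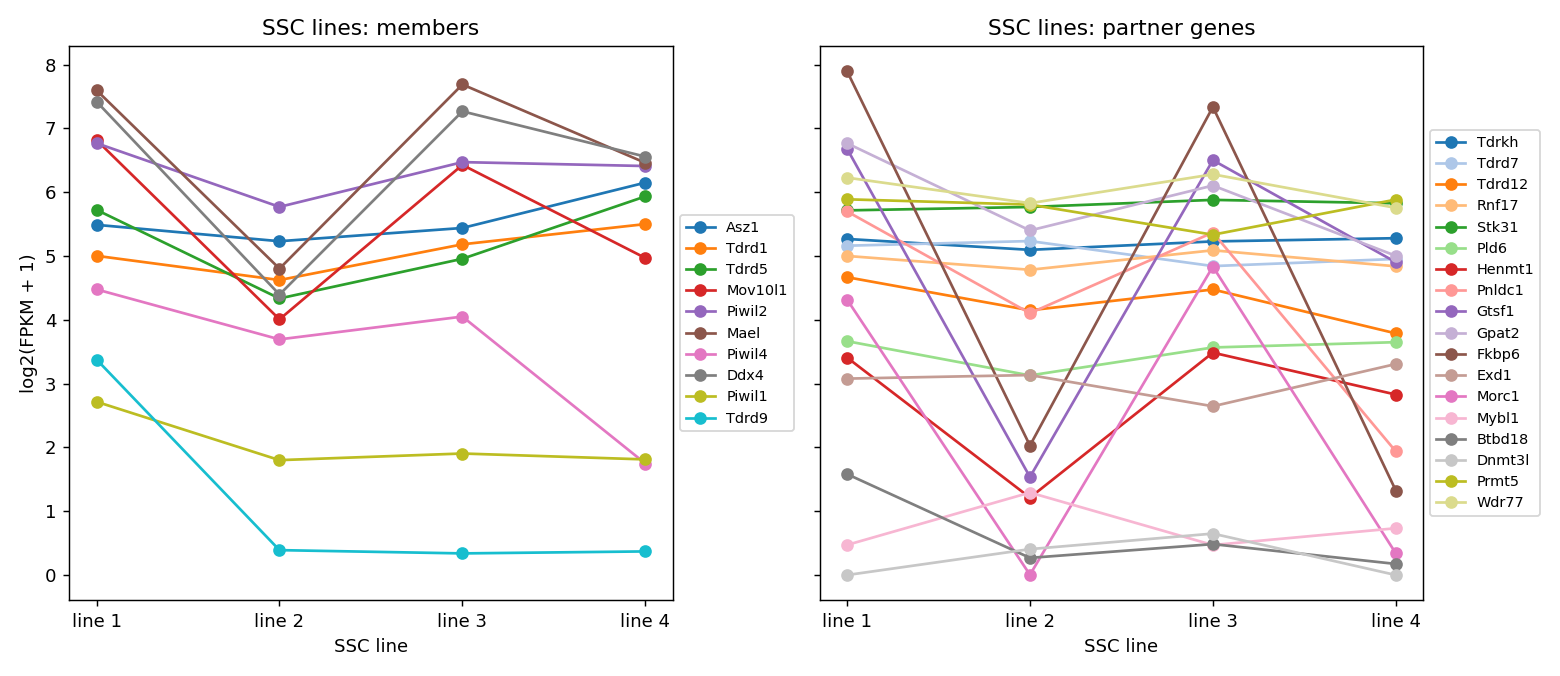
Levels as log2(FPKM + 1) in the 4 SSC lines for the 10 genes (left) and the 18 named partner genes (right), with a connecting line for each gene and no order implied among lines. Fkbp6, Gtsf1, Morc1, Ddx4, Mael and Mov10l1 are higher in lines 1 and 3 than in line 2, whereas Tdrkh and Stk31 are nearly level.

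Strain was compared where both cell types were present, in Oct4-GFP (SSC lines 1 and 2, MASC lines 1 and 2) and in 129mix (SSC line 4, MASC lines 3 and 4). All 10 genes were lower in MASC lines of each strain. None had a strain by cell type interaction past an adjusted p of 0.05 in limma, where 0.392% of transcripts did. Piwil4 came nearest, with a difference of -3.09 in Oct4-GFP and -1.21 in 129mix (unadjusted p 0.0226, adjusted p 0.349). With 7 lines and a single 129mix SSC line, a difference between strains may have been missed.

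Other genes known to act in the pathway were taken from a list of 20, of which 19 were in the files. In the MASC lines 8 of the 19 were called lower (2.13% of all transcripts) and 1 was called higher (1.73%), with a median difference of -1.19. Tdrkh, a Tudor domain protein of the mitochondrial surface, was at 33.2 to 37.8 FPKM in SSCs and 0.850 to 2.76 FPKM in MASCs, a difference of -3.92 ± 0.19 (limma adjusted p 8.32e-07). Gpat2, an acyltransferase that binds MILI, differed by -3.92 ± 0.38, Stk31, a Tudor domain protein with a kinase-like domain, by -3.74 ± 0.36, and Tdrd7, a germ granule protein, by -3.69 ± 0.26. The others called lower were Gtsf1 (-3.27 ± 0.88), a PIWI cofactor, Henmt1 (-2.62 ± 0.39), the methyltransferase of piRNA ends, Exd1 (-2.62 ± 0.13), an RNA-binding protein, and Pld6 (-2.11 ± 0.22), a mitochondrial factor of piRNA processing.

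Dnmt3l, the cofactor of de novo DNA methylation, moved the other way. It was at most 0.569 FPKM in SSCs and between 53.9 and 189 FPKM in MASCs, a difference of 6.82 ± 0.36 (limma adjusted p 1.42e-06). Other partners had smaller differences. Tdrd12 was at 12.8 to 24.4 FPKM in SSCs and 9.58 to 30.5 FPKM in MASCs (-0.11 ± 0.30, limma adjusted p 0.875). Rnf17 was at 26.6 to 33.1 FPKM in SSCs and 9.71 to 14.7 FPKM in MASCs. Its difference of -1.19 ± 0.12 (limma adjusted p 6.39e-05) was under the size threshold. Prmt5 and Wdr77, the enzyme and partner subunit that methylate arginines on PIWI proteins and many other targets, differed by 0.66 ± 0.14 (limma adjusted p 0.0065) and -0.11 ± 0.22 (limma adjusted p 0.799).

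Fkbp6, Morc1, Gtsf1 and Pnldc1 differed widely among SSC lines. Fkbp6, a co-chaperone, was at 238, 3.08, 161 and 1.504 FPKM in SSC lines 1 to 4, and 2.19 to 9.10 FPKM in MASCs, with a difference of -2.38 ± 1.29 (limma adjusted p 0.209). Morc1, which acts in transposon silencing, was at 19.0 and 27.5 FPKM in SSC lines 1 and 3 but at 0.0031 and 0.266 FPKM in lines 2 and 4, against 8.44 to 29.9 FPKM in MASCs (2.01 ± 0.97, limma adjusted p 0.159). Gtsf1 was at 102, 1.90, 89.7 and 28.9 FPKM and Pnldc1, the trimmer of piRNA ends, at 51.0, 16.2, 40.3 and 2.83 FPKM. Pnldc1 differed by -0.68 ± 0.63 between MASCs and SSCs (limma adjusted p 0.491). Of the rest, Mybl1, a transcription factor for pachytene piRNA genes, differed by 1.05 ± 0.30 (limma adjusted p 0.0257) and Btbd18, a further regulator of those genes, by 0.54 ± 0.30 (limma adjusted p 0.21). Without the lines over 100 FPKM of Col1a2, which left 2 SSC and 5 MASC lines, 5 partners were called lower, without Gtsf1, Henmt1 and Pld6, and Morc1 was called higher by 4.27 (limma adjusted p 0.00332).

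**Figure D5:**
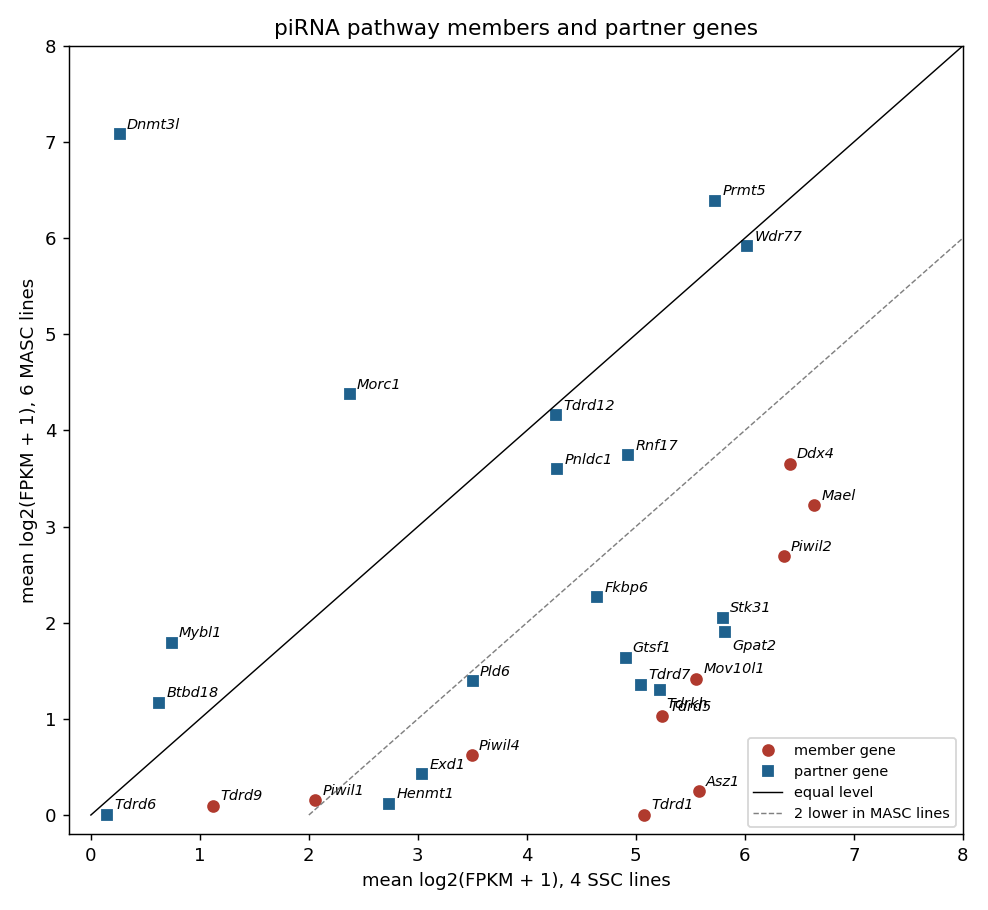
Mean log2(FPKM + 1) in 4 SSC lines (horizontal axis) and 6 MASC lines (vertical axis) for the 10 members (circles) and 19 partner genes (squares), with the line of equal level and a dashed line 2 below it. Dnmt3l stands above the diagonal, Prmt5, Wdr77 and Tdrd12 lie near it, and 8 members and 9 partners lie under the dashed line, of which Fkbp6 did not pass the test.

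Genes with the most similar pattern were ranked by Pearson's r over the 17 samples with the mean of the standardised profiles of the 10 members, among 15265 genes. Samples of one cell type share that type, so r is a description only. The members' own r ranged from 0.699 for Tdrd9 to 0.980 for Mov10l1. The 10 nearest genes were Ccdc158 (r = 0.985), Pou4f1, Kif27, Lonrf2, Gnat2, AI118078, Abcc8, Rhox10, Sycp2 and Hepacam2 (r = 0.971). Sycp2, a component of the synaptonemal complex, averaged 19.3 FPKM in SSCs and 0.383 FPKM in MASCs. Rhox10, a homeobox gene expressed in spermatogonia, averaged 16.6 FPKM in SSCs and 0.315 FPKM in MASCs.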

How the data were processed

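RNA-seq libraries (Illumina TruSeq; whether strand was used in counting is not given in the sources used here) of 17 samples were used, 1 table per sample. The authors deposited an FPKM per RefSeq transcript, with confidence bounds, made with TopHat (TopHat2 2.0.11 in the submitters' processing notes) on mm9 and Cufflinks (version not given in the sources used here), with duplicate and multi-mapping reads excluded and upper-quartile and GC normalization. The coverage in each table is a signal in reads per base as the authors deposited it; no read counts were used. Of 33262 rows, the 32661 with a plain RefSeq ID were analysed as log2(FPKM + 1) without a filter.

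limma 3.58.1 (R 4.3.3; lmFit, eBayes) was fitted over the 12 SSC, MASC and ESC lines for comparisons among them and over all 17 samples otherwise, with Benjamini-Hochberg adjustment over all transcripts; tests used the line as the unit and were tested on simulated data. Named are all 10 members, their other transcripts with at least 1 FPKM, partner genes called in MASC minus SSC or averaging at least 1 FPKM in MASC, ESC or iPS lines, and the 10 genes most like the members' mean profile. Members, gene lists and motifs were chosen with earlier results of these data known, and genes shown for the size of their values among SSC lines were chosen after these were seen. Transcript starts came from the tables and strand from GENCODE. The partner gene Spocd1 was not analysed here.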

Additional observations from a re-analysis of the deposited data

Results flagged for a closer look

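Among 56 sets of SSC or MASC lines tested by Dixon's criterion on log2(FPKM + 1) (20 of members, 36 of partner genes), 5 had a line that stood apart from the others of its group; chance gives about 1 in 20 such sets. Piwil1 was at 5.57 FPKM in SSC line 1 and between 2.48 and 2.74 FPKM in the other SSC lines. Tdrd9 was at 9.40 FPKM in SSC line 1 and between 0.265 and 0.311 FPKM in the others. Tdrd7 was at 4.29 FPKM in MASC line 1, the MASC line with the most Col1a2 (327 FPKM), and at 0.887 to 1.55 FPKM in the others, while the MEF sample held 10.3 FPKM of Tdrd7. Dnmt3l was at 53.9 FPKM in MASC line 1, below the 132 to 189 FPKM of the other MASC lines. Prmt5 was at 39.3 FPKM in SSC line 3, against 55.0 to 58.3 FPKM in the others. The part of feeder content in these values was not tested.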

How the results depend on the processing

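The count of members called lower in MASC lines, 8, stayed between 7 and 9 in every alternative run, and was 8 with each line left out in turn; leaving out lines gave 7 to 8 partner genes. Under the alternatives, 246 counts were within 1.5 times of the main one and 7 were not, leaving aside the count of partner genes higher in MASC lines. That count, 1 in the main run, was outside this range in 3 alternatives. Leaving out the lines over 100 FPKM of Col1a2, an alternative chosen after seeing the data, gave 5 partner genes lower in MASC lines, in place of 8. For ESC minus SSC this alternative kept 1 ESC line, since ESC line 1 was among those left out. For ESC minus SSC, the count was 5 to 8 with a line left out. For iPS minus MEF, where 3 were called, it was 5 with a pseudocount of 0.1 and 1 to 4 with a line left out. The replicate block gave 4 members for ESC minus SSC and 1 for iPS minus MEF; the numbers do not pair lines in the labels, and 12 same-numbered pairs had correlations of deviations from -0.36 to 0.41, 5 of them over 0.1. The differences that changed sign were not called. Piwil4 in pluripotent lines minus HSC was -0.042 with quantile normalization, and Tdrd9 in the same comparison was -0.76 with strain as a block. The Tdrd1 transcript read, NM_001002238, ranged from -0.00018 to 0.91 in iPS minus MEF with a line left out. This transcript was at 0.882 FPKM in iPS line 1 and 0.00118 FPKM in iPS line 2. Summed over its transcripts, Tdrd1 was at 0.883 and 0.929 FPKM in these lines. The causes were not tested. With a filter for 1 FPKM in 2 samples, 9 members were tested and Tdrd9 was not. The depth limits values under 0.1 FPKM.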
